A study of Homo sapiens with 11 samples.

Results

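The genes described here encode the subunits of 2 translation initiation factors, eIF2B, which is the target of the small molecule ISRIB, and eIF2, which is the substrate of eIF2B. They were taken from the count table by symbol: EIF2B1, EIF2B2, EIF2B3, EIF2B4 and EIF2B5 for eIF2B, and EIF2S1, EIF2S2 and EIF2S3 for eIF2. All 8 symbols were found among the 27671 genes of the table, and all 8 were among the 15591 genes that passed the filter on low counts. Polyadenylated RNA was measured in HEK293T cells, a line of human embryonic kidney origin that carries the SV40 large T antigen. The 4 groups were DMSO vehicle (n = 3 libraries), DMSO with ISRIB (n = 2), A8, a compound given at 10 µM (n = 3), and the same dose of A8 with ISRIB (n = 3). The dose of ISRIB is not in the labels used here. The titles give 8 h of treatment and the treatment protocol gives 4 h. The cells are an established line with no engineered allele named, so each group differs from vehicle only by the compounds added, as far as the labels say.

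Protein synthesis starts with a ternary complex of eIF2, GTP and the initiator methionyl-tRNA. After each round eIF2 is left bound to GDP, and eIF2B exchanges that GDP for GTP. Stress kinases phosphorylate the alpha subunit of eIF2, which turns eIF2 from a substrate into an inhibitor of eIF2B, lowers general initiation and raises translation of ATF4, the transcription factor of the integrated stress response. ISRIB binds across the centre of the eIF2B decamer and keeps it assembled and active when eIF2 is phosphorylated. A response of this kind acts through proteins, and mRNA levels do not measure phosphorylation, complex assembly or exchange activity.

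The sites on which this chemistry turns are shown first, because the measurements below ask whether the transcripts that encode them changed. They are reference sequences from GENCODE release 29, written 5′ to 3′ with 15 bases of coding sequence on each side, and capitals mark the codon of the residue. In EIF2S1 that codon is the serine phosphorylated in the integrated stress response, codon 52 counting the start codon and 51 without it. In EIF2B2 the codons are those of an asparagine and a histidine of the ISRIB pocket, and in EIF2B4 that of a leucine of the same pocket.
EIF2S1, phosphorylated serine: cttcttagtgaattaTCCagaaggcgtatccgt
EIF2B2, pocket asparagine: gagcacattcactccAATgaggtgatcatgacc
EIF2B2, pocket histidine: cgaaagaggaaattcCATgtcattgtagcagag
EIF2B4, pocket leucine: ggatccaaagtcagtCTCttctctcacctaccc

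Libraries held 34072107 to 35318111 counts and 17892 to 18017 detected genes each. Replicate 3 of A8 with ISRIB stood apart from the other libraries, with the lowest scaling factor (0.938, against 0.985 to 1.02) and a chi-square per degree of freedom of 36.1 against replicate 1 of its group. For the members singled out in comparisons that use it, values without it, or the range with each library left out, are given beside the main ones. All 7 markers of the HEK293 line were detected in every library. They ran from PAX2 at 0.991 to 2.14 CPM up to VIM at 630.4 to 754.9 CPM. CPM is a library's counts brought to 1 common total, here with the scaling given below. Of 8 markers of blood, endothelial, fibroblast and liver cells, PTPRC and PECAM1 were at 0 counts in all 11 libraries, and VWF, DCN and ALB had at most 8. COL1A1 (540 to 753 counts), CD68 (152 to 209) and COL3A1 (14 to 40) were detected in every library and carried the summed level of the list, which was 24.1 to 26.4 CPM in vehicle, 23.5 to 24.3 with ISRIB alone, 22.6 to 23.9 with A8 and 23.3 to 24.3 with both. Their part in the results was not tested.

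Counts of the 8 subunit genes ran from 1673 for EIF2S1 in replicate 3 of A8, a counting error of 2.44%, to 5094 for EIF2B2 in a library of ISRIB alone, a counting error of 1.40%. Counting error was thus small beside the spread of most members between libraries. The marker levels above and the gene levels below are CPM scaled by the trimmed mean of M-values (TMM). The 2 libraries of ISRIB alone are called a and b. As these are bulk samples, less RNA of a gene per cell and fewer cells that hold it cannot be told apart.

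EIF2B5, the epsilon subunit that carries the catalytic domain for nucleotide exchange, was the steadiest member. It was at 71.2, 68.8 and 64.6 CPM in vehicle, 65.8 and 64.6 with ISRIB alone, 71.0, 66.1 and 65.8 with A8, and 64.6, 65.8 and 68.4 with A8 and ISRIB. All 4 groups overlapped, and the highest library was 1.10 times the lowest. The log2 fold change with A8 was -0.01 (SE 0.06, 95% interval -0.15 to 0.12).

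EIF2B3, the gamma subunit that pairs with epsilon in the catalytic part of the complex, was at 61.4, 73.9 and 63.5 CPM in vehicle, 75.3 and 78.7 with ISRIB alone, 68.2, 71.0 and 71.1 with A8, and 73.7, 73.5 and 78.2 with A8 and ISRIB. Both libraries of ISRIB alone lay above all 3 vehicle libraries, although vehicle replicate 2 came close to them and the other 2 were well below. With A8 alone the levels fell inside the vehicle range. Its log2 fold change was 0.22 for ISRIB alone (95% interval 0.05 to 0.38, SE 0.08, edgeR adjusted p = 0.454) and 0.18 with A8 and ISRIB (95% interval 0.03 to 0.33, adjusted p = 0.561 in edgeR), so neither passed the test. Without the library that stood apart the latter was 0.15.

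EIF2B1, the alpha subunit, holds the decamer together and takes part in sensing phosphorylated eIF2. Its levels were 95.9, 94.3 and 100.6 CPM in vehicle, 92.8 and 102.3 with ISRIB alone, 92.7, 87.7 and 95.6 with A8, and 94.4, 95.7 and 92.1 with A8 and ISRIB. The groups overlapped in all comparisons. With A8 the log2 fold change was -0.08 (SE 0.06, 95% interval -0.20 to 0.05).

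EIF2B2, the beta subunit, lends the asparagine and histidine codons shown above to the ISRIB pocket. It was at 129.8, 131.2 and 134.8 CPM in vehicle, 137.2 and 142.4 with ISRIB alone, 135.5, 121.4 and 128.2 with A8, and 126.1, 132.4 and 145.4 with A8 and ISRIB. The highest value, 145.4, was in the library that stood apart. The log2 fold change was 0.08 with ISRIB alone (95% interval -0.07 to 0.24) and -0.04 with A8 (95% interval -0.18 to 0.10).

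EIF2B4, the delta subunit, completes the pocket with the leucine shown above. Its levels were 124.0, 120.4 and 119.8 CPM in vehicle, 121.7 and 126.6 with ISRIB alone, 112.6, 111.3 and 114.1 with A8, and 109.5, 110.2 and 124.8 with A8 and ISRIB. All 3 libraries of A8 lay below all 3 of vehicle, while with A8 and ISRIB 2 libraries were low and the one that stood apart was as high as vehicle. The mean was 112.7 ± 1.39 CPM with A8 and 121.4 ± 2.23 in vehicle (SD, n = 3 each), and the log2 fold change was -0.11 (95% interval -0.24 to 0.02, SE 0.06, adjusted p = 0.575 in edgeR). With both compounds against vehicle it was -0.08, and -0.14 without the library that stood apart.

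EIF2S1, the alpha subunit of eIF2, carries the serine that the stress kinases phosphorylate. It was at 53.0, 54.5 and 49.1 CPM in vehicle, 57.3 and 61.8 with ISRIB alone, 51.2, 49.0 and 49.2 with A8, and 50.5, 50.1 and 57.2 with A8 and ISRIB. The libraries of ISRIB alone were the highest, above every vehicle library and, by a narrow margin, above every library of A8 with ISRIB. The log2 fold change was 0.19 for ISRIB alone (95% interval 0.02 to 0.36, SE 0.08, edgeR adjusted p = 0.482) and -0.07 with A8 (95% interval -0.22 to 0.08).

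EIF2S3, the gamma subunit, binds GTP and the initiator tRNA. Its levels were 72.4, 79.1 and 73.7 CPM in vehicle, 74.6 and 77.6 with ISRIB alone, 71.9, 73.3 and 81.7 with A8, and 73.8, 74.3 and 68.1 with A8 and ISRIB. The A8 libraries enclosed the vehicle range. The log2 fold change with A8 was 0.01 (SE 0.07, 95% interval -0.13 to 0.15).

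EIF2S2, the beta subunit, contacts eIF5 and the epsilon subunit of eIF2B, and it varied most of the 8. It was at 61.9, 56.9 and 58.4 CPM in vehicle, 62.1 and 65.5 with ISRIB alone, 66.3, 64.9 and 77.0 with A8, and 54.8, 56.1 and 62.6 with A8 and ISRIB. Every A8 library was above every vehicle library and above every library of A8 with ISRIB, and replicate 3 of A8 was the highest of all. The means were 69.4 ± 6.63 CPM with A8, 59.0 ± 2.58 in vehicle and 57.8 ± 4.18 with both compounds (SD, n = 3 each).

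**Figure D1:**
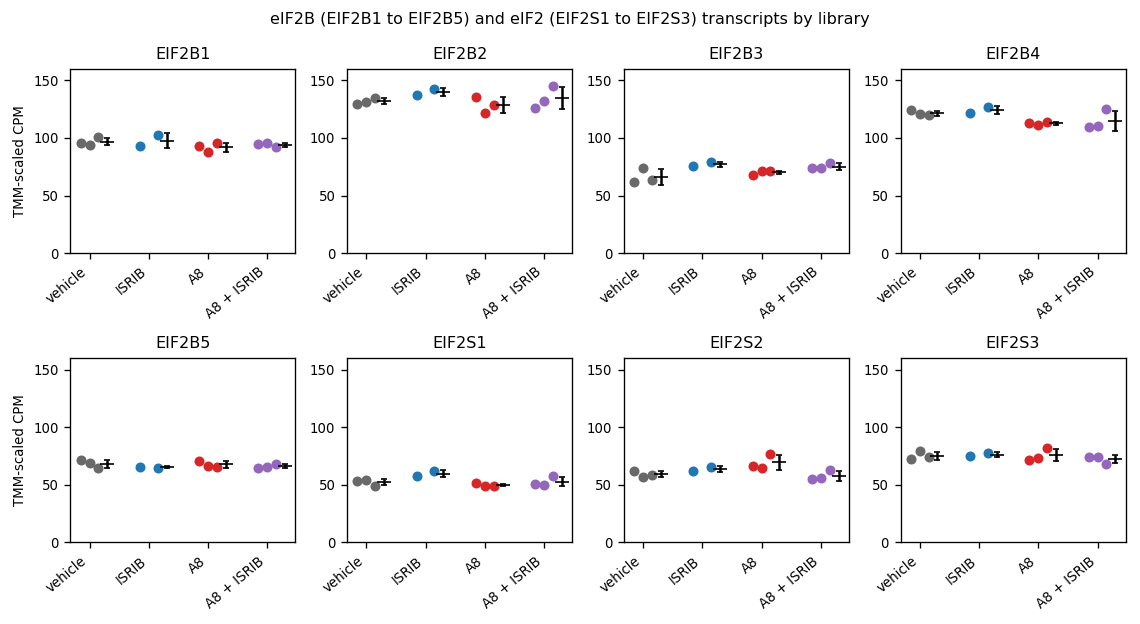
TMM-scaled CPM (vertical axis, from 0) of each subunit gene in every library (points) by treatment group, with the group mean and SD in black. EIF2S2 in the A8 group (64.9 to 77.0 CPM) lies above vehicle (56.9 to 61.9 CPM), and EIF2B4 in the A8 group (111.3 to 114.1 CPM) lies below vehicle (119.8 to 124.0 CPM).

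What A8 did to these genes was tested in A8 against vehicle. None of the 8 members was called at an adjusted p under 0.05 in edgeR's quasi-likelihood test, where 0.141% of all genes tested were called, and DESeq2 called 0 as well. At an unadjusted p under 0.05 the count was 1 of 8, EIF2S2, beside 10.2% of all genes. EIF2S2 was at 0.23 on the log2 scale, or 1.18-fold (SE 0.08, 95% interval 0.07 to 0.40, edgeR adjusted p = 0.299). Its adjusted p was 0.661 and its log2 fold change 0.15 without replicate 3 of A8, and the lowest adjusted p under any alternative was 0.184. The members' libraries did not overlap between A8 and vehicle for EIF2S2, higher with A8 as for 8.47% of all genes, and for EIF2B4, lower with A8 as for 8.13%.

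The size of change that the data leave room for was read from the intervals. The whole 95% interval lay within -0.5 to 0.5 on the log2 scale for 8 of 8 members in A8 against vehicle, where 67.4% of all genes did so, and within -0.3 to 0.3 for 7 of 8, all but EIF2S2, beside 39.7%. In the other comparisons this narrower bound held 6 of 8 members with ISRIB alone (30.5% of all genes), 7 with both against vehicle (42.2%), 6 with both against ISRIB alone (33.2%), 7 with both against A8 (43.1%) and 4 in the interaction (12.5%). The members had higher mean CPM than 76.1% (EIF2S1) to 90.4% (EIF2B2) of genes tested, and intervals tend to be narrower at higher counts. Shares among genes of like level were not taken, here or in the comparisons below. The shares of all genes thus do not show that the members were steadier than such genes. The median log2 fold change of the 8 in A8 against vehicle was -0.03, beside 0.01 over all genes tested. For scale, 2 genes that ATF4 is known to induce were called in the same comparison: ASNS, which makes asparagine, was at 0.70 on the log2 scale (SE 0.07, edgeR adjusted p = 4.46e-05), and CHAC1, which degrades glutathione, at 1.70 (SE 0.15, edgeR adjusted p = 3.67e-05). The intervals of all 8 subunit genes lay below those of both. Other genes of the ATF4 network changed less. ATF4 itself had 0.24 (95% interval 0.07 to 0.42, edgeR adjusted p = 0.328) and TRIB3 had 0.18, both close to EIF2S2 at 0.23.

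**Figure D2:**
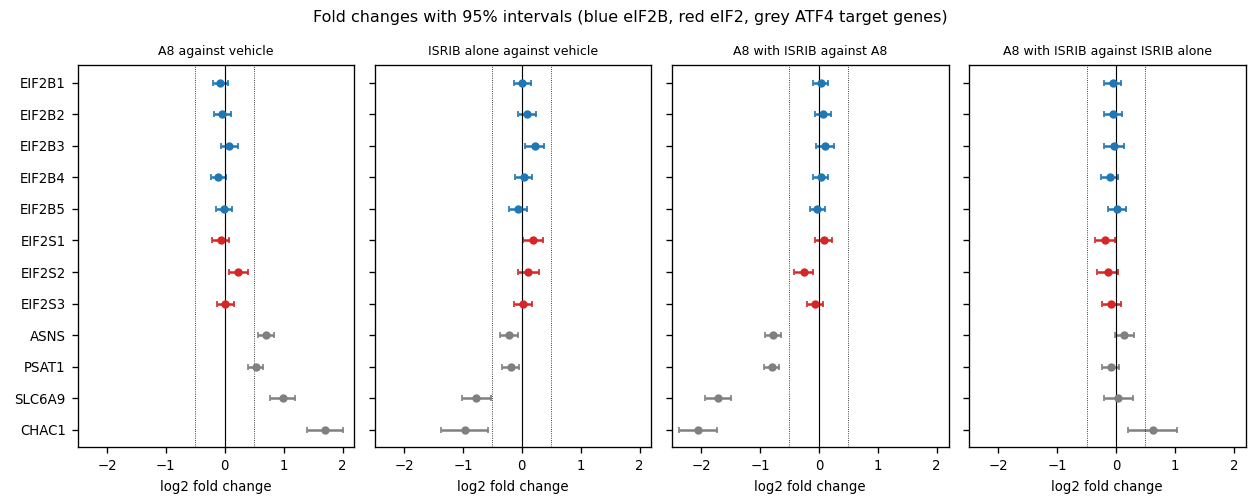
Log2 fold changes (horizontal axis) with 95% intervals in 4 comparisons for the 5 eIF2B genes (blue), the 3 eIF2 genes (red) and 4 ATF4 target genes (grey). Dotted lines mark -0.5 and 0.5, and all 8 subunit intervals lie between them, while CHAC1 has 1.70 with A8 and -2.05 when ISRIB is added to A8.

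Whether the compound that binds eIF2B changed the transcripts of its target was asked by setting ISRIB alone against vehicle. In edgeR 0 of 8 members were called, as were 0% of all genes, and DESeq2 called 0 members. At an unadjusted p under 0.05 there were 2, EIF2B3 and EIF2S1, beside 9.58% of all genes. Both ISRIB libraries lay above all 3 vehicle libraries for 4 of 8 members, EIF2B2, EIF2B3, EIF2S1 and EIF2S2, where 13.9% of all genes did so. For 8 of 8 members the interval lay within -0.5 to 0.5, beside 63.2% of all genes. The median of the 8 was 0.06, beside 0.00 over all genes.

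Transcript GC content moved with this comparison. Over all genes with a reference transcript the log2 fold change of ISRIB alone had a Spearman rho of -0.49 with GC content, a description across genes, which all come from the same 5 libraries and are no replicates. The members had GC contents from 39.2% for EIF2S1 to 55.7% for EIF2B4. With the trend on GC content removed, EIF2S1 went from 0.19 to 0.09, EIF2S2 from 0.11 to 0.05, EIF2B2 from 0.08 to 0.03 and EIF2B3 from 0.22 to 0.18. In A8 against vehicle rho was -0.31, and EIF2S2 went from 0.23 to 0.20. In A8 with ISRIB against ISRIB alone rho was 0.34, and in the interaction it was 0.47.

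What ISRIB did in the presence of A8 was tested in A8 with ISRIB against A8. Again 0 of 8 members were called in edgeR, where 0.180% of all genes were, and 0 in DESeq2. EIF2S2 was the only member with an unadjusted p under 0.05, beside 5.91% of all genes. Its value was -0.26 on the log2 scale (SE 0.08, 95% interval -0.43 to -0.10, edgeR adjusted p = 0.498). The value was -0.19 without replicate 3 of A8, and -0.32 (adjusted p = 0.205 in edgeR) without the library of A8 with ISRIB that stood apart. The libraries of EIF2S2 did not overlap, lower with both compounds as for 5.98% of all genes, and those of EIF2B3 did not overlap, higher with both as for 5.09%. EIF2B3 had a log2 fold change of 0.10, and 0.07 to 0.12 with each library left out. The interval lay within -0.5 to 0.5 for 8 of 8 members, beside 69.0% of all genes. The members' median was 0.03. This comparison and A8 against vehicle share the 3 A8 libraries, so that a high A8 level of EIF2S2 enters both.

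Whether A8 acted on these genes when ISRIB was present was tested by setting A8 with ISRIB against ISRIB alone. No library of A8 against vehicle enters here. In edgeR 0 of 8 members were called, beside 0.0128% of all genes, and in DESeq2 0. EIF2S1 was the 1 member with an unadjusted p under 0.05, beside 8.32% of all genes, with a value of -0.18 (SE 0.08, 95% interval -0.35 to -0.01, edgeR adjusted p = 0.575), or -0.11 with the GC trend removed. Without the library that stood apart it was -0.24 (edgeR adjusted p = 0.281). EIF2S2 had -0.14 (95% interval -0.32 to 0.04), or -0.20 without that library, against 0.23 in the absence of ISRIB. EIF2S1 and EIF2S3 had no overlap and were lower with A8, as were 12.3% of all genes. EIF2S3 had a log2 fold change of -0.08, and -0.11 to -0.04 with each library left out. All 8 intervals lay within -0.5 to 0.5, beside 63.7% of all genes, and the median was -0.07.

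The difference between the A8 effects with and without ISRIB, the interaction, was called for 0 of 8 members in edgeR and 0 in DESeq2, beside 0.0257% of all genes in edgeR. EIF2S2 had the largest value of the 8, -0.38 (SE 0.12, 95% interval -0.62 to -0.13, adjusted p = 0.416 in edgeR), and was the only member with an unadjusted p under 0.05, as were 8.48% of all genes. It was -0.30 with the GC trend removed and -0.30 without replicate 3 of A8, and -0.44 without the library that stood apart. The interval stayed within -0.5 to 0.5 for 7 of 8 members, all but EIF2S2, beside 47.6% of all genes. The other 7 values ran from -0.12 for EIF2B3 to 0.04 for EIF2B5.

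With both compounds against vehicle, 0 of 8 members were called in edgeR, beside 0.0192% of all genes, and 0 in DESeq2. EIF2B3, with 0.18, was the 1 member with an unadjusted p under 0.05, beside 7.70% of all genes. For none of the 8 did the libraries of the groups separate, as they did with higher levels for 5.79% and with lower levels for 6.57% of all genes. EIF2S2 was at -0.03 (95% interval -0.19 to 0.13), or -0.09 without the library that stood apart. The 3 comparisons with vehicle share its libraries, and for EIF2B3 they gave 0.08 with A8, 0.22 with ISRIB and 0.18 with both, with vehicle replicates 1 and 3 low in each. Without vehicle replicate 2 these values were 0.17, 0.30 and 0.27, and without vehicle replicate 1 they were 0.03, 0.16 and 0.13. All 8 intervals lay within -0.5 to 0.5, beside 68.1% of all genes.

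The authors' deposited tables, made with DESeq2, cover the 3 comparisons with vehicle and list all 8 members. In the authors' deposited table of A8 against vehicle EIF2S2 had a log2 fold change of 0.23 with an adjusted p of 0.702. In the authors' deposited table for ISRIB alone EIF2B3 had 0.22 (adjusted p = 0.902) and EIF2S1 0.19 (adjusted p = 0.906). No member was called there in any of the 3, beside 0.475% of the genes with an adjusted p in the authors' deposited table for A8 and 0.0499% in each of the other 2.

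The eIF2 trimer holds its subunits in equal numbers, so the make-up of the eIF2 counts was also followed within each library, where library scaling cancels. EIF2S2 made up 33.0%, 29.9% and 32.2% of the counts of the 3 eIF2 genes in vehicle, 32.0% and 32.0% with ISRIB alone, 35.0%, 34.7% and 37.0% with A8, and 30.6%, 31.1% and 33.3% with both. The A8 libraries were the 3 highest of the 11. In the same libraries EIF2S1 took the lowest or near-lowest shares, 27.1%, 26.2% and 23.7%, against 27.1% to 28.6% in vehicle and 27.8% to 30.4% with both. EIF2S3 averaged 38.8% ± 0.727 with A8 and 40.3% ± 1.48 in vehicle (SD, n = 3 each), with overlap. These shares come from the same counts as the fold changes and are no separate support for them.

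**Figure D3:**
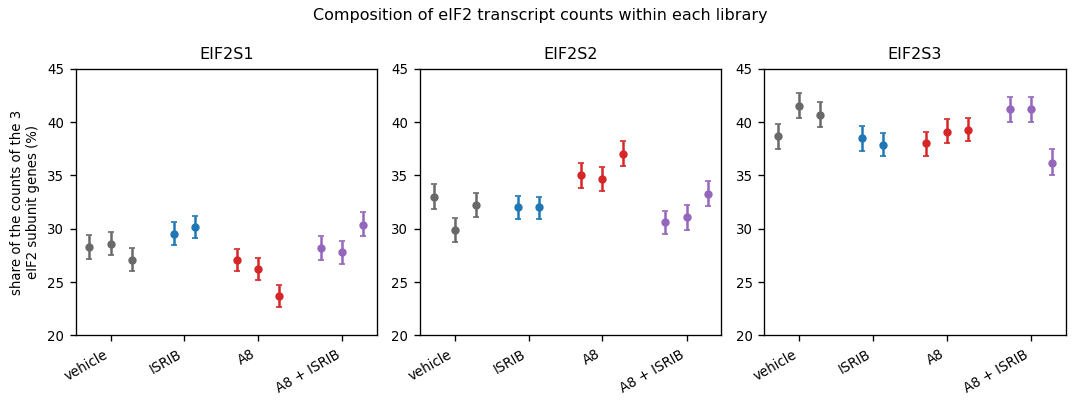
Share of each eIF2 subunit gene in the counts of the 3 eIF2 genes (vertical axis, percent, drawn from 20 to 45) in each library by group, with 95% Wilson intervals that cover counting error only. EIF2S2 takes 34.7% to 37.0% in the A8 libraries and 29.9% to 33.3% in all others.

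Annotated copies matter for the reading of EIF2S2. GENCODE release 29 names 4 copies of EIF2S2 and 1 of EIF2S3, and 0 of these are listed in the count table. Reads that fit a gene and its copy equally well may have been given to either or dropped, and the deposited counts do not show which. The remaining 6 members have no named copy.

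Levels were compared between subunits only per kilobase of the reference transcript. EIF2B4 ranked highest, at 65.7 CPM per kb averaged over the 11 libraries, and held that rank in 11 of 11. EIF2B3 at 43.2 and EIF2B1 at 38.3 CPM per kb followed with overlapping ranges, then EIF2B2 at 30.9. EIF2S3 at 26.1, EIF2B5 at 25.2 and EIF2S2 at 23.5 CPM per kb overlapped one another, and EIF2S1 at 11.8 was last in all 11 libraries. The phosphorylated subunit thus had the lowest level on this scale, but the order turned on the length used. Per kilobase of coding sequence EIF2B2 led at 126.4 CPM per kb and EIF2B5 was last at 31.0, each in 11 of 11 libraries, and EIF2S1 at 56.1 overlapped EIF2S2 at 62.5, EIF2B3 at 52.9 and EIF2S3 at 52.7. The reference transcripts of EIF2B2 and EIF2S1 have 4314 and 4485 bases, of which 1053 and 945 are coding, and both rose in the order, while EIF2B3, with 1659 bases of which 1356 are coding, went from rank 2 to rank 6. Which transcript ends the cells used was not tested.

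**Figure D4:**
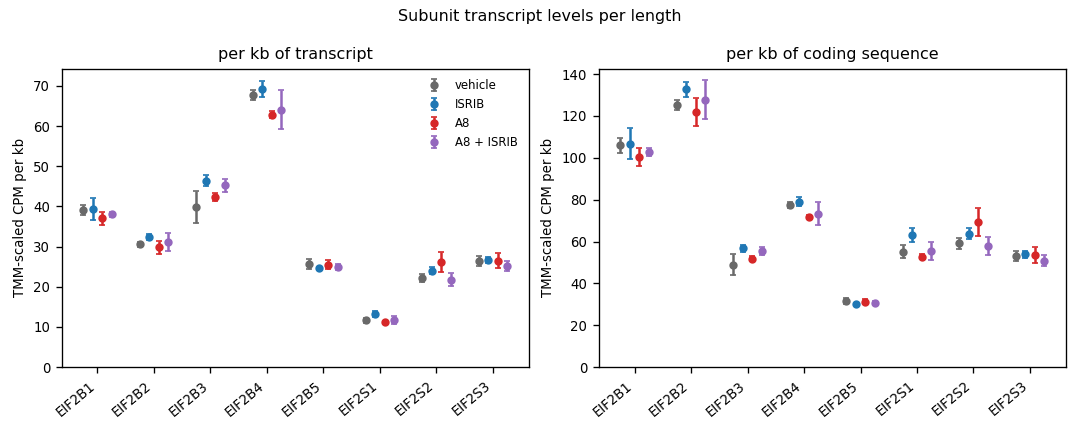
Mean TMM-scaled CPM per kilobase (vertical axes, from 0) with SD for each subunit gene in the 4 groups, per transcript length (left) and per coding length (right). EIF2B4 leads on the left at 65.7 and EIF2B2 on the right at 126.4 CPM per kb over the 11 libraries.

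The balance between the complexes was read as the mean level of the 3 eIF2 genes over that of the 5 eIF2B genes, per kilobase of transcript. The ratio was 0.493 ± 0.00665 in vehicle (SD, n = 3), 0.502 ± 0.00302 with ISRIB alone (n = 2), 0.538 ± 0.0309 with A8 (n = 3) and 0.481 ± 0.0100 with both (n = 3). The A8 libraries, from 0.514 to 0.573, lay above all others on this scale. Per kilobase of coding sequence they ran from 0.742 to 0.816 and overlapped ISRIB alone, at 0.740 to 0.745. The sum of the eIF2B genes was 470.8 ± 11.8 CPM with A8 and 484.7 ± 3.46 in vehicle, and that of the eIF2 genes was 194.9 ± 11.4 and 186.3 ± 4.66 CPM. No test was made of these sums, which hold the values of EIF2S2 and EIF2B4 already given.

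Across all 11 libraries the spread of the 8 genes was close to that of genes with like mean levels. The coefficient of variation had a median of 5.31% over the members, beside 6.53% over the 2232 tested genes within the same range of mean CPM and 10.4% over all genes tested. It ran from 3.69% for EIF2B5 to 10.0% for EIF2S2, whose highest library was 1.41 times its lowest. EIF2B3 (7.69%), EIF2S1 (7.98%) and EIF2S2 were above the 6.53% of genes in that range, and the other members below it.

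Likeness between subunits over the libraries was weak for most pairs. Among the 28 pairs of members the Pearson correlation of log2 CPM had a median of 0.08 and ran from -0.37 for EIF2B3 with EIF2B5 to 0.79 for EIF2B4 with EIF2S1. EIF2B2 correlated at 0.69 with EIF2B4, its partner in the ISRIB pocket, and at 0.75 with EIF2S1. The medians were 0.14 for the 10 pairs within eIF2B, 0.02 for the 3 within eIF2 and 0.09 for the 15 between the complexes. With group means subtracted they were 0.20, 0.13 and 0.40, and with levels but without the library that stood apart 0.05, 0.22 and 0.10. The order of the 3 kinds of pair thus changed with the measure. These values describe 11 libraries in 4 groups that share scaling, depth and GC differences. EIF2B2, EIF2B4 and EIF2S1 were all high in the library of A8 with ISRIB that stood apart. Over the other 10 libraries EIF2B4 with EIF2S1 was at 0.76, EIF2B2 with EIF2S1 at 0.72 and EIF2B2 with EIF2B4 at 0.63.

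The genes most like each member over the 11 libraries, among those whose mean log2 CPM reached 2, were not other subunits. EIF2S2 was closest to NUF2 (r = 0.93) and SLC35G2 (r = 0.92), and EIF2S1 to RAE1 (r = 0.96) and KCTD6 (r = 0.96). Among the genes most like EIF2B4 was PRPF3 (r = 0.95), and EIF2B2 was closest to TBCE (r = 0.96) and EMC3 (r = 0.92). EIF2B3 was closest to MORF4L1 (r = 0.95) and NUP93 (r = 0.92), EIF2B5 to OVCA2 and ACADVL (r = 0.95 each), EIF2S3 to YWHAZ (r = 0.89) and ZDHHC7 (r = 0.88), and EIF2B1 to POU3F2 (r = 0.81) and MCPH1 (r = 0.80). Each is among the 2 closest of all genes at or above that level, compared over 11 points, and such values are reached by searching.

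Genes that work with eIF2 and eIF2B were examined as lists. Of 16 partners of the eIF2 cycle, such as EIF5, the GTPase activator, 0 were called in any of the 6 comparisons in edgeR, and their median log2 fold change with A8 was 0.04. At an unadjusted p under 0.05, 3 of the 16 were higher with A8 and 0 lower, beside 10.2% of all genes in either direction. With ISRIB alone, where fold changes moved with GC content, 6 were higher and 1 lower, beside 9.58% of all genes. Their median was then 0.13, beside 0.00 over all genes. In the interaction 14 of the 16 were below 0 and 2 above, with a median of -0.16 beside -0.01. The share of all genes below 0 was not taken, and fold changes in the interaction also moved with GC content (rho 0.47). At an unadjusted p under 0.05 there was 1 of the 16, beside 8.48% of all genes. The lowest value with A8 was that of EIF1AX, a scanning factor, at -0.77 (SE 0.40, adjusted p = 0.530 in edgeR). With both compounds against vehicle EIF1AX was at -1.71 (SE 0.44, adjusted p = 0.370 in edgeR). These values come from only 5 to 22 counts per library.

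Of 13 eIF2 kinases, phosphatases and their regulators 0 were called in any of the 6 comparisons in edgeR. At an unadjusted p under 0.05, 3 were higher with A8 and 0 lower, beside 10.2% of all genes in either direction. With both compounds against vehicle 4 were higher and 0 lower, beside 7.70%. With both against A8 there were 0 in either direction, beside 5.91%. Among the kinases with A8, EIF2AK1 (HRI) had 0.13 (SE 0.05) and EIF2AK2 (PKR) 0.05 (SE 0.08). EIF2AK3 (PERK) had 0.13 (SE 0.11) and EIF2AK4 (GCN2) 0.03 (SE 0.08). The A8 libraries lay above all vehicle libraries for EIF2AK1, as for 8.47% of all genes, and overlapped vehicle for the other kinases. IMPACT, an inhibitor of GCN2 activation, had the largest value, 0.41 (SE 0.11, adjusted p = 0.207 in edgeR). PPP1R15A (GADD34), which directs a phosphatase to eIF2, had 0.25 with A8 (SE 0.10, adjusted p = 0.398 in edgeR).

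The 13 subunits of eIF3 and 14 factors of the eIF4 group gave 0 calls in all 6 comparisons. With A8 their medians were 0.04 and 0.09, and 5 of the 14 eIF4 factors were higher and 0 lower at an unadjusted p under 0.05, beside 10.2% of all genes in either direction. EIF4A2, an RNA helicase of cap-dependent initiation, was nearest to a call at 0.30 (SE 0.06, adjusted p = 0.0859 in edgeR). EIF3C has a near-identical copy, EIF3CL, and its counts are uncertain for that reason.

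MRI1, GMPPA and GMPPB are metabolic enzymes related in sequence to eIF2B subunits, MRI1 to the alpha, beta and delta group and the GMPP proteins to gamma and epsilon. None of the 3 was called in edgeR. MRI1 had -0.24 with A8 (SE 0.05, edgeR adjusted p = 0.112), -0.19 with ISRIB only and -0.25 with both, with every treated library below every vehicle library in all 3, as for 8.13%, 15.1% and 6.57% of all genes.

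For scale, 7 of 12 genes of the ATF4 network were called higher with A8, with a list median of 0.65, and 8 of 12 were called lower when ISRIB was added to A8, with a median of -0.80. The values of the 12 ran from 0.18 for TRIB3 to 1.70 for CHAC1 with A8. When ISRIB was added to A8 they ran from -2.05 for CHAC1 to -0.25 for ATF4. EIF2S2, at 0.23 and -0.26, lay at the weak end of both ranges, and both comparisons use the same 3 A8 libraries. With ISRIB alone all 12 were below 0, while EIF2S2 was at 0.11. In A8 with ISRIB against ISRIB alone 11 of the 12 were above 0, while EIF2S2 was at -0.14. For both compounds against vehicle and for the interaction 11 of the 12 were below 0, as was EIF2S2 (-0.03 and -0.38). The list was chosen with earlier results of these libraries known, so its counts give scale and no independent evidence. With A8, and when ISRIB was added to A8, the medians of the 5 eIF2B genes were -0.04 and 0.03. Those of the 3 eIF2 genes were 0.01 and -0.07.

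**Figure D5:**
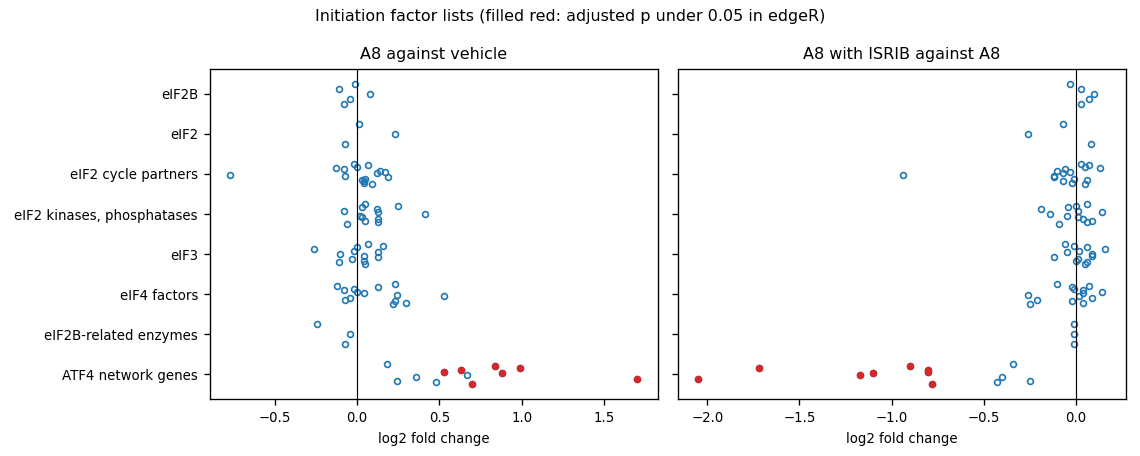
Log2 fold changes (horizontal axes) of the genes of each list, 1 point per gene, in A8 against vehicle and in A8 with ISRIB against A8, with called genes filled in red. Red points occur only in the row of ATF4 network genes, with 7 called on the left and 8 on the right, and the point furthest left among the cycle partners is EIF1AX.

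Promoters of the members were searched for the element through which ATF4 and C/EBP partners act. RefSeq promoters of GRCh38.p14, from 250 bases before to 50 after the start, were matched for 7 of the 8 members. The letters TGATGNAA, on either strand, occur in 3.62% of 35116 promoters, and were found in 2 of the 4 ATF4 target genes shown for scale, ASNS and CHAC1, and not in PSAT1 or SLC6A9. They were found in 0 of the 7 members, which says little for letters in only 3.62% of promoters. Whether these letters bear on which genes were called was not tested. The matches are shown for ASNS, on the minus strand of chromosome 7, and for CHAC1, on the plus strand of chromosome 15, where the match is on the opposite strand. The letters CGCATGCG, the core of the NRF1 site, occur in 2.02% of promoters and overlap none of the other motifs shown. They had 2 matches in EIF2S1 and 1 in EIF2B5. Capitals mark the matches.
ASNS, chr7:97872453-97872492: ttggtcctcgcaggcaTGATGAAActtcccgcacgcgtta
CHAC1, chr15:40953246-40953285: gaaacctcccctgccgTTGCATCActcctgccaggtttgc
EIF2S1, chr14:67360292-67360332: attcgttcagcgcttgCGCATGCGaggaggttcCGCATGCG
EIF2B5, chr3:184135234-184135273: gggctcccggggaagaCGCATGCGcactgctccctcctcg

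The EIF2S1 and EIF2B5 windows are on the plus strand. The log2 CPM of EIF2S1 and EIF2B5, which hold the same letters, correlated at 0.05 over the 11 libraries, at -0.02 without the library that stood apart, and at 0.66 once group means were subtracted. The ETS core CCGGAAG, in 10.3% of promoters, was found in EIF2B1 with 2 matches and in EIF2B2 with 1. It was also found in a promoter of the ATF4 target gene ASNS. EIF2B1 and EIF2B2 correlated at 0.42 over the 11 libraries. The value was 0.69 without the library that stood apart and 0.27 once group means were subtracted. The E-box CACGTG, in 7.26% of promoters, was found in EIF2B3. A match is a description of letters and not a site in use, and its absence says only that these letters are not in the window.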

How the data were processed

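Whole-number counts per gene symbol for 11 libraries were deposited by the authors; per the submitters' processing notes reads were placed on GRCh37, and DESeq and DESeq2 were used. The aligner, counter, annotation and strand setting were not given in the sources used here. Libraries were strand-specific and made from polyadenylated RNA, per the labels' protocols. The authors also deposited DESeq2 tables with the signal of each gene averaged over libraries (base mean), log2 fold changes, a Wald score and p-values, per the file headers. Replicates are called biological in the series' design text. Replicate 2 of vehicle with ISRIB was left out by the submitters for poor quality, per the labels, and the columns of that group carry numbers unlike the titles, so they were assigned to the group only.

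Counts were tested in R 4.3.3 with edgeR 4.0.16 (filterByExpr, TMM, glmQLFit and glmQLFTest) in one fit of all 11 libraries over 15591 genes, with Benjamini-Hochberg adjustment over all of them and calls at an adjusted p under 0.05. Standard errors came from the quasi-likelihood F statistic. Lists of genes were described by counts and medians, with no set test. The members, lists and rules were chosen with earlier results of these data known. Named genes are all members, called list genes, the 2 list genes with the largest change in each comparison (not all are printed), 4 ATF4 target genes for scale and the 2 genes most like each member, of which 1 is not reported here; EIF5 and the 4 kinases were added as context. Transcript lengths, GC content and codons came from GENCODE release 29 and promoters from RefSeq GRCh38.p14; neither is the authors' build, and no coordinates of the counts are given. A reference transcript was matched for 83.4% of genes tested. A count of 0 allows up to 0.0880 CPM in the shallowest library, taken as 3 counts, and covers counting error only. Replicates differed by more than sampling noise (chi-square per degree of freedom 7.21 to 36.1), so none was merged. Alternatives were the Wald test of DESeq2 1.42.0, DESeq2 size factors in edgeR, no filter, at least 50 counts, a fit of the compared groups alone, leaving out each library, a replicate block, a GC trend removed (lowess), a bound of 0.3, coding lengths and deviations from group means. The fit was tested on simulated data.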

Additional observations from a re-analysis of the deposited data

How the results depend on the processing

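The count of 0 members called at an adjusted p under 0.05 held in all 6 comparisons under each alternative that was run. The replicate numbers were not used as pairs in the main fit. Deviations of same-numbered libraries correlated at -0.13 to 0.14 among the 9 libraries with numbers. Such values show no strong shared replicate effect and do not settle whether the samples were paired. With a replicate block over these 9 libraries 0 members were called in each comparison that could be fitted. EIF2S2 was then at 0.23 for A8 against vehicle. Members bounded within 0.3 in place of 0.5 fell to 4 in the interaction. With coding lengths the ratio of eIF2 to eIF2B was 0.717 in vehicle, 0.742 with ISRIB, 0.776 with A8 and 0.703 with both. With deviations from group means the median correlation between members was 0.26 in place of 0.08, and without replicate 3 of A8 with ISRIB, an alternative chosen after seeing the data, it was 0.12.

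Directions turned for uncalled values from -0.11 to 0.04. With the GC trend removed EIF2S3 was at -0.03 with A8, EIF2B1 at -0.05 and EIF2S3 at -0.06 with ISRIB alone, and EIF2S1 at -0.02 with both against vehicle. In the interaction EIF2B2 was then at 0.05, EIF2S1 at 0.01 and EIF2S3 at 0.00. This alternative subtracts the trend by construction, and the cause of the trend was not tested. With each library left out, A8 against vehicle ranged from -0.05 to 0.02 for EIF2B5 and -0.05 to 0.05 for EIF2S3, and ISRIB alone from -0.06 to 0.08 for EIF2B1 and -0.01 to 0.06 for EIF2S3. Both compounds against vehicle ranged from -0.05 to 0.04 for EIF2S1, -0.09 to 0.01 for EIF2S2 and -0.03 to 0.07 for EIF2B2. A8 with ISRIB against ISRIB alone ranged from -0.13 to 0.02 for EIF2B1 and -0.00 to 0.04 for EIF2B5. A8 with ISRIB against A8 ranged from -0.00 to 0.06 for EIF2B1, -0.04 to 0.06 for EIF2B4 and -0.05 to 0.01 for EIF2B5. The interaction ranged from -0.05 to 0.09 for EIF2B1, -0.08 to 0.03 for EIF2B2, -0.07 to 0.03 for EIF2B4 and -0.00 to 0.07 for EIF2B5. EIF2S2 kept its sign, with 0.15 to 0.28 for A8 against vehicle, -0.32 to -0.19 when ISRIB was added to A8, and -0.44 to -0.30 in the interaction.

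With 2 or 3 libraries per group, changes smaller than the intervals were not detectable. ISRIB alone has 2 libraries, and its comparisons have the widest intervals.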
